A study of Mus musculus with 13 samples.

Results

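The genes of dopamine and tetrahydrobiopterin synthesis examined here were Th, Ddc, Slc6a3, Slc18a2, Gch1, Pts, Spr, Qdpr, Drd2 and Drd4, which are 10 of the 19937 genes measured. They were taken as a group because Th was high and Pts low in the dark-adapted PGC-1α KO retina. Differences between KO dark and WT dark are therefore given for all 10 genes as descriptions with no test, and the same holds for Th and Pts in every comparison that uses dark arrays. All 10 genes were found, each on 1 probe set that carries no other gene symbol.

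Dopamine is the light signal of the inner retina. It is made by a sparse class of amacrine cells, the interneurons of the inner retina, released in light, and acts through receptors on photoreceptors and on inner neurons, where it favours cone over rod vision. Tyrosine hydroxylase (Th) performs the rate-limiting step of its synthesis and needs tetrahydrobiopterin as a cofactor. Cells make this cofactor from GTP through GTP cyclohydrolase (Gch1), 6-pyruvoyltetrahydropterin synthase (Pts) and sepiapterin reductase (Spr), and dihydropteridine reductase (Qdpr) restores it after use.

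The retinas came from PGC-1α global KO mice kept in the dark (KO dark), WT mice kept in the dark (WT dark), KO mice exposed to 15000 lux for 2 h (KO light) and WT mice exposed in the same way (WT light), with 3 arrays per group in the comparisons. PGC-1α, the product of Ppargc1a, is a transcriptional coactivator of mitochondrial and oxidative genes, and a global KO carries the loss in every cell type. The KO mice were on a C57 BL/6 background, the WT mice were C57 BL/6 NRj from a breeder, and the mice were 6 to 13 weeks old and dark adapted overnight. After light they recovered overnight in darkness. Each array held RNA of the pooled retinas of 1 mouse. By the labels the mice of the 6 dark arrays compared were female and those of the 6 light arrays male, so that light and sex cannot be told apart, whereas KO and WT were compared within 1 sex. The Ppargc1a probe set read 10.40, 10.19 and 10.26 in KO dark and 10.03, 10.01 and 10.02 in WT dark, and was thus not lower in KO. No source used here says whether its probes lie in the deleted part of the gene, so it does not check the labels.

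A further array, labelled WT dark replicate 4 and from a male mouse by its label, was left out of the main comparisons. Over all genes it correlated at a mean r of 0.997 with KO light replicates 1 and 2 and at 0.989 with the other WT dark arrays. The array labelled KO light replicate 3 correlated at a mean r of 0.992 with KO light replicates 1 and 2 and at 0.997 with the WT dark arrays. Gfap, a filament protein that Müller glia raise after injury, read 9.75 and 9.88 in KO light replicates 1 and 2, 7.37 in the array labelled KO light 3 and 9.71 in the array labelled WT dark 4. The KO light differences printed for the 10 genes are therefore given as labelled and with exchanged arrays, for which the array labelled WT dark 4 was counted as KO light and the array labelled KO light 3 was dropped.

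Levels are log2 intensities of a probe set and are compared between arrays only, not between genes. A difference is the mean of the group named first minus that of the other, on the log2 scale, with its SE from limma over all 12 arrays. A gene was called where its p, adjusted after Benjamini and Hochberg over the 19937 genes, was under 0.05 and its ratio was at least 1.2 or at most 0.87. For the interaction, the light response of KO minus that of WT, the adjusted p alone decided. In RNA of whole retina, fewer cells of a type and less RNA per cell cannot be told apart.

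The promoters of Th and Pts are shown because these were the members that set the group apart. They were read from RefSeq in the GRCm38.p6 build, as the 250 bases before the start of the gene, 5′ to 3′ on the strand of the gene, which is the minus strand for both. That of Th lies at chr7:142899996-142900245 and that of Pts at chr9:50528657-50528906. Capitals mark the matches to the motifs searched.
Th: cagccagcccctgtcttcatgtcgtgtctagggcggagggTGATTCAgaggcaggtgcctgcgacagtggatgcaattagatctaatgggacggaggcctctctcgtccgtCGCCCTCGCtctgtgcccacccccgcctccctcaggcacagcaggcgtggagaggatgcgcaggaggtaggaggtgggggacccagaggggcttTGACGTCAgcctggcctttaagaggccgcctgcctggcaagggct
Pts: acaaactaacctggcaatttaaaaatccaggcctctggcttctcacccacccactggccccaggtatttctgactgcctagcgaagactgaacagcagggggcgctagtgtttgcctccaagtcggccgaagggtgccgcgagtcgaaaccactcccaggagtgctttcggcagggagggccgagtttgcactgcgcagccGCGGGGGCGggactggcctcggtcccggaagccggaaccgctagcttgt

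The Th promoter held the cAMP response element TGACGTCA at positions -45 to -38 from the start, the AP-1 motif TGANTCA at -210 to -204, and the Egr motif GCGNGGGCG, read on the opposite strand, at -139 to -131. The Pts promoter held the Egr motif at -49 to -41. Among the 32851 mouse promoters of the same length, 1.55% held the cAMP response element, 6.75% the AP-1 motif and 4.7% the Egr motif on either strand. The NBRE, AAAGGTCA, to which Nr4a receptors bind, stood in 1.34% of all promoters, and the ERR motif TCAAGGTCA, which ends in the same AAGGTCA, in 0.387%, both on either strand. Among the members, the NBRE was found in the Ddc promoter only, at -73 to -66, in a promoter that also held an AP-1 motif at -129 to -123. A match is a run of letters and not a bound site, and the motifs were chosen with the levels of these genes known.

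Th stood higher in KO dark than in WT dark. Its level was 7.56, 7.50 and 7.52 in KO dark, against 6.95, 7.03 and 7.14 in WT dark. It was 7.45, 7.52 and 7.33 in KO light, against 7.32, 7.41 and 7.37 in WT light, and the array labelled WT dark 4 read 7.48. The 3 WT dark arrays were the lowest of all arrays, and the other groups lay close together above them. Th differed by 0.48 (SE 0.06) between KO dark and WT dark and by 0.32 (SE 0.06) between WT light and WT dark, without overlap in either case, and by -0.09 (SE 0.06) between KO light and KO dark. After light the difference between KO and WT was 0.07 (SE 0.06, limma adjusted p = 0.681) with an interval that ran between -0.06 and 0.20. With exchanged arrays it was 0.12 (SE 0.05, limma adjusted p = 0.153) and the groups did not overlap, as the array labelled KO light 3 had the lowest Th of its group.

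Th is an amacrine gene in the retina, and markers of amacrine cells in general moved with it in the dark. The mean level of 8 such markers (Gad1, Gad2, Slc6a9, Slc32a1, Chat, Tfap2a, Tfap2b and Pax6) lay between 9.80 and 9.84 in KO dark, against 9.71 to 9.72 in WT dark. All 8 markers had the higher mean in KO dark, by 0.01 for Chat and by up to 0.30 for Tfap2a, with a median of 0.11. Of all 19937 genes, 10293 had the higher mean in KO dark. Bipolar markers also lay higher in KO dark (10.651 to 10.681, against 10.614 to 10.650 in WT dark). Ganglion cell markers lay lower (9.06 to 9.14, against 9.15 to 9.29), and those of rods, cones, Müller glia and pigment epithelium overlapped. In light the mean level of the amacrine markers overlapped as labelled, and ranged over 9.74 to 9.83 in KO and over 9.74 to 9.77 in WT. It was 9.81 and 9.83 in KO light replicates 1 and 2, 9.74 in the array labelled KO light 3 and 9.83 in the array labelled WT dark 4. With exchanged arrays KO light thus lay above WT light without overlap. The part of these markers in the Th values was not tested.

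**Figure D1:**
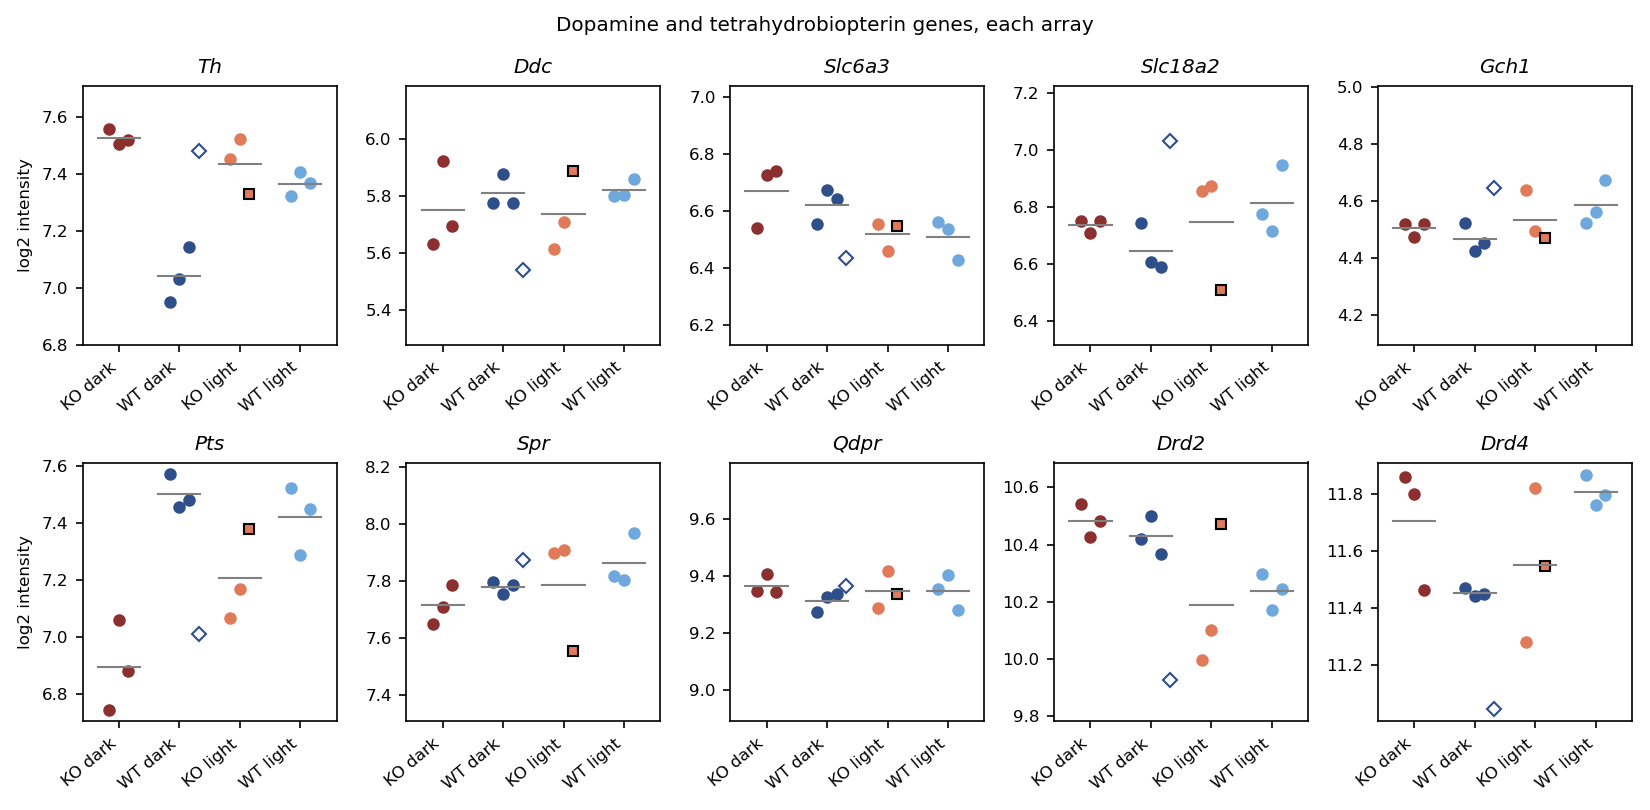
Log2 intensity of each of the 10 genes in KO dark, WT dark, KO light and WT light. Each filled circle is an array and the line is the mean of 3 arrays as labelled, the square with a black edge is the array labelled KO light 3 and the open diamond is the array labelled WT dark 4. Th is lowest in the 3 WT dark arrays and Pts is lowest in the 3 KO dark arrays, apart from the 7.06 of replicate 2, which lies above the 7.01 of the array labelled WT dark 4.

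The remaining genes of the dopamine neuron itself, Ddc, Slc6a3 and Slc18a2, overlapped between KO dark and WT dark, and none was called in a tested comparison. Ddc encodes the decarboxylase that turns L-DOPA into dopamine. Its level was 5.63, 5.92 and 5.70 in KO dark, 5.78, 5.88 and 5.78 in WT dark, 5.62, 5.71 and 5.89 in KO light and 5.80, 5.80 and 5.86 in WT light, and every pair of groups overlapped. Ddc intensities were low, at 46.52 to 60.71 where array medians lay between 141.1 and 145.65, and no background value was used. The difference after light was -0.08 (SE 0.08) between KO and WT as labelled, at a limma adjusted p of 0.718. With exchanged arrays it was -0.20 (SE 0.07), at a limma adjusted p of 0.0863, and the KO light arrays then lay below all WT light arrays.

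Slc6a3 encodes the transporter that takes dopamine back up. It read 6.54, 6.73 and 6.74 in KO dark, 6.55, 6.67 and 6.64 in WT dark, 6.55, 6.46 and 6.55 in KO light and 6.56, 6.54 and 6.43 in WT light. The light arrays stood lower than the dark ones on average in both genotypes, by 0.15 in KO and 0.11 in WT as labelled, and the groups overlapped. With exchanged arrays the KO light minus KO dark difference of Slc6a3 was -0.19 (SE 0.06, limma adjusted p = 0.0483), against a limma adjusted p of 0.321 as labelled, and its ratio of 0.878 stayed above the limit of 0.87. Slc18a2, the transporter that loads amines into vesicles, read 6.75, 6.71 and 6.75 in KO dark, 6.75, 6.61 and 6.59 in WT dark, 6.86, 6.88 and 6.51 in KO light and 6.78, 6.72 and 6.95 in WT light. The array labelled KO light 3 was the lowest of all arrays for Slc18a2 and the array labelled WT dark 4, at 7.03, was the highest. Its KO light minus KO dark difference was accordingly 0.01 as labelled and 0.18 (SE 0.07, limma adjusted p = 0.0697) with exchanged arrays.

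Pts catalyses the step of cofactor synthesis after Gch1 and was lower in KO dark than in WT dark. Its level was 6.74, 7.06 and 6.88 in KO dark, against 7.57, 7.46 and 7.48 in WT dark, a difference of -0.61 (SE 0.09) without overlap. In light it was 7.07, 7.17 and 7.38 in KO, against 7.52, 7.29 and 7.45 in WT. KO light replicates 1 and 2 were below all WT light arrays, and the array labelled KO light 3 lay among these.

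After light the Pts difference between KO and WT was -0.21 (SE 0.09) as labelled, at a limma p of 0.0421 before adjustment and 0.368 after it, and was not called. With exchanged arrays, where 7.01 takes the place of 7.38, it was -0.34 (SE 0.08) at a limma adjusted p of 0.0155, and Pts was called lower in KO light without overlap. KO light stood above KO dark by 0.31 as labelled and by 0.19 with exchanged arrays, and WT light minus WT dark was -0.08. The order of the group means of Pts, KO dark, KO light, WT light and WT dark, was the same both ways, and neighbouring means in light and dark WT differed by less than 1 SD of the WT light arrays (7.42 ± 0.12 in WT light and 7.50 ± 0.06 in WT dark, SD, n = 3 each).

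The other enzymes of the cofactor did not follow Pts. Gch1, the rate-limiting enzyme, read 4.52, 4.47 and 4.52 in KO dark, 4.52, 4.42 and 4.45 in WT dark, 4.64, 4.50 and 4.47 in KO light and 4.52, 4.56 and 4.67 in WT light. KO and WT overlapped in the dark and in light, and light and dark overlapped in each genotype. Gch1 intensities were low, at 21.46 to 25.53 where array medians lay between 141.1 and 145.65. No background value was used, so a steady transcript and background signal cannot be told apart here. Spr, which makes the last step, read 7.65, 7.71 and 7.79 in KO dark, 7.80, 7.75 and 7.79 in WT dark, 7.90, 7.91 and 7.55 in KO light and 7.82, 7.81 and 7.97 in WT light. Its KO light minus KO dark difference was 0.07 (limma adjusted p = 0.778) as labelled and 0.18 (SE 0.05, limma adjusted p = 0.0273) with exchanged arrays, a ratio of 1.13 that stayed under the limit of 1.2. Qdpr stayed between 9.27 and 9.42 in all 13 arrays. Its 3 KO dark arrays lay just above its 3 WT dark arrays, by 0.05 on average, which is as much as the median difference of the 10 genes.

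**Figure D2:**
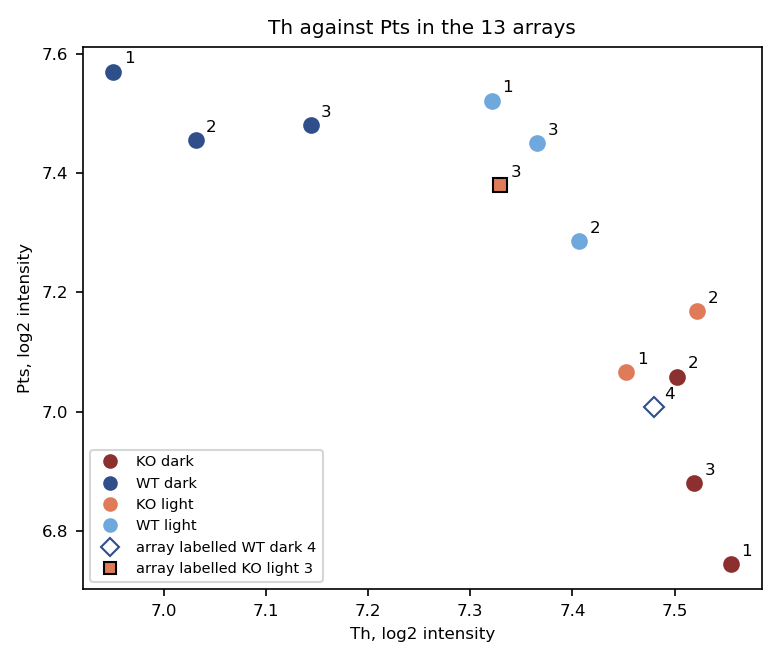
Log2 intensity of Th (horizontal) against that of Pts (vertical) in all 13 arrays, with the replicate number beside each point and the array labelled KO light 3 as a square. The KO dark arrays sit at the lower right and the WT dark arrays at the upper left, and the array labelled WT dark 4, at 7.48 and 7.01, sits near KO light replicate 1.

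Of the receptors, Drd2 stood lower in light than in the dark. It encodes the D2 receptor, which in the retina includes the autoreceptor on dopaminergic cells. It read 10.54, 10.43 and 10.48 in KO dark, 10.42, 10.50 and 10.37 in WT dark, 9.99, 10.10 and 10.47 in KO light and 10.30, 10.17 and 10.24 in WT light. KO light replicates 1 and 2 and all WT light arrays were below the 6 dark arrays, and the array labelled WT dark 4 was the lowest of all at 9.93. The array labelled KO light 3 lay with the dark arrays.

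As labelled, Drd2 differed by -0.29 (SE 0.10) between KO light and KO dark, at a limma p of 0.011 before adjustment and 0.23 after it. With exchanged arrays the difference was -0.48 (SE 0.06) at a limma adjusted p of 0.00011, and Drd2 was called lower without overlap. It was also called with KO light replicate 3 left out and nothing put in its place, at -0.44 (limma adjusted p = 0.000791). There 1981 of the 19937 genes were called. For Drd2, WT light minus WT dark was -0.19 (SE 0.10, limma adjusted p = 0.34), with no overlap and no call. Between KO light and WT light it was -0.05 (SE 0.10, limma adjusted p = 0.886) as labelled, and -0.23 (SE 0.06, limma adjusted p = 0.0202), called lower without overlap, with exchanged arrays. The light response of KO minus that of WT was -0.10 as labelled and -0.28 (SE 0.08, limma adjusted p = 0.0873) with exchanged arrays and was called in neither case.

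Markers of several cell types moved with Drd2, those of cones among them. The mean level of Arr3, Opn1sw, Opn1mw and Gnat2 was 11.49 to 11.53 in KO dark, 11.49 to 11.54 in WT dark, and ranged over 10.68 to 11.41 in KO light, against 11.26 to 11.39 in WT light. With exchanged arrays all 4 of these markers were called lower in KO light than in KO dark, where 6.30% of all genes were called lower, and 3 of 4 lower than in WT light, where 3.66% were. As labelled 0 of 4 were called in either comparison. The mean level of 4 rod markers (Gnat1, Pde6a, Nrl and Sag) was at most 12.21 in KO light, against 12.25 to 12.34 in WT light. Other cell types moved as well. With exchanged arrays 2 of 3 bipolar markers were called lower in KO light than in KO dark, and of 4 Müller glia markers 2 were called higher and 1 lower. In that comparison 13.3% of all genes were called in either direction, and 6.30% called lower. The mean level of the Müller markers was 10.57 and 10.79 in KO light replicates 1 and 2, 10.14 in the array labelled KO light 3 and 10.56 in the array labelled WT dark 4, against 10.14 to 10.20 in KO dark. The part of these markers in the Drd2 values was not tested.

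Drd4 encodes the D4 receptor of photoreceptors, whose transcript is known to follow the daily light cycle. It read 11.86, 11.80 and 11.46 in KO dark, 11.47, 11.44 and 11.45 in WT dark, 11.28, 11.82 and 11.55 in KO light and 11.87, 11.76 and 11.80 in WT light. The WT groups did not overlap, with an SD of 0.02 in WT dark and 0.05 in WT light, whereas the SD was 0.21 in KO dark and 0.27 in KO light. The array labelled WT dark 4 was the lowest, at 11.05. WT light minus WT dark was 0.35 (SE 0.12), at a limma p of 0.0127 before adjustment and 0.175 after it. A call of Drd4 was made only where the 6 WT arrays were fitted alone (SE 0.05, limma adjusted p = 0.00987), along with 680 of the 19937 genes in all. KO light minus WT light was -0.26 (SE 0.12, limma adjusted p = 0.398) as labelled and -0.42 (SE 0.15, limma adjusted p = 0.09) with exchanged arrays. The light response of KO minus that of WT was -0.51 (SE 0.17) for Drd4, at a limma p of 0.0114 before adjustment and 0.553 after it. With exchanged arrays it was -0.68 (SE 0.21), at a limma p of 0.0075 before adjustment and 0.122 after it.

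**Figure D3:**
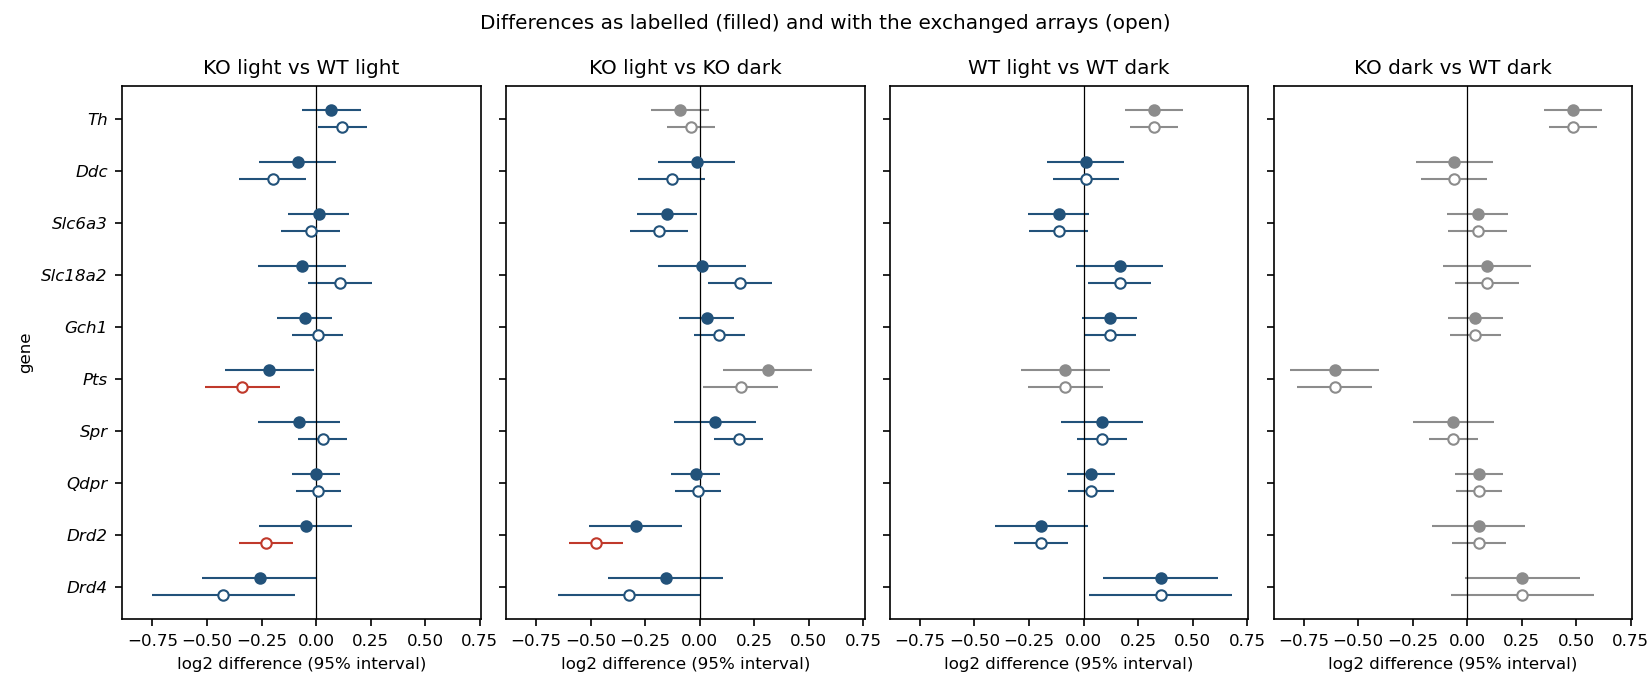
Log2 differences of the 10 genes between KO and WT in light, between light and dark in KO, between light and dark in WT, and between KO and WT in the dark, with 95% intervals from limma. Filled points are arrays as labelled, open points are exchanged arrays, red marks a called difference and grey one that was not tested. The 3 red points are Pts and Drd2 in KO light vs WT light and Drd2 in KO light vs KO dark, all with exchanged arrays.

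Counted over the group, 0 of 10 genes were called between KO light and WT light as labelled, where 0.176% of all genes were called, and 1 (Pts) had a limma p under 0.05 before adjustment, as 12.9% of all genes had. With exchanged arrays 2 of 10 were called, both lower in KO light, where 8.23% of all genes were called and 3.66% called lower, and 5 had an unadjusted p under 0.05, as 26.5% of all genes had. For that comparison 4 of 10 genes did not overlap with exchanged arrays, against 29.3% of all genes, and 0 of 10 as labelled, against 14.1%. For light against dark 8 genes were tested. In KO 0 of 8 were called as labelled, where 0.100% of all genes were, and 1 (Drd2, lower) with exchanged arrays, where 13.3% of all genes were called and 6.30% called lower. In WT 0 of 8 were called, where 0.431% of all genes were as labelled and 4.41% with exchanged arrays. Spr and Drd4 were higher and Drd2 lower in WT light than in WT dark without overlap, which is 3 of these 8 against 28.2% of all genes. No interaction of genotype and light was called among the 8 tested genes, where 0.0602% of all genes were called as labelled and 2.78% with exchanged arrays.

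In the comparison that chose the genes, KO dark against WT dark, Th and Qdpr were higher and Pts was lower without overlap, while 16.7% of all genes did not overlap and 0.0752% were called. The median difference of the 10 genes was 0.05, beside 0.00295 over all genes. Drd4 came next in size at 0.25 (SE 0.12), and the remaining 7 genes lay between -0.06 and 0.09.

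Genes that make, use or break down the same molecules were followed on lists of their own. As labelled, none of the genes measured on these 5 lists was called in any comparison. With exchanged arrays, where some were, 8.23% of all genes were called between KO light and WT light and 13.3% between KO light and KO dark. Of the 4 measured accessory genes of the cofactor (Gchfr, Pcbd1, Pcbd2 and Cbr1), Pcbd1 stood apart. It encodes the dehydratase that helps to regenerate tetrahydrobiopterin and is also the dimerization cofactor of the transcription factor HNF1. Pcbd1 read 9.61, 9.82 and 9.66 in KO dark, 9.46, 9.37 and 9.41 in WT dark, 9.39, 9.51 and 9.41 in KO light and 9.10, 9.03 and 9.18 in WT light. KO was above WT without overlap in the dark and in light, and light was below dark in both genotypes.

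Pcbd1 differed by 0.33 (SE 0.06) between KO light and WT light as labelled, at a limma adjusted p of 0.0639, and by 0.37 (SE 0.06) with exchanged arrays, at a limma adjusted p of 0.00211. In the dark the difference was 0.28 (SE 0.06). WT light minus WT dark was -0.31 (SE 0.06, limma adjusted p = 0.0568), and KO light minus KO dark was -0.26 as labelled (limma adjusted p = 0.138) and -0.23 with exchanged arrays (limma adjusted p = 0.0176). The other 3 accessory genes were not called, and Pcbd2, the paralogue of Pcbd1, differed by -0.08 between KO light and WT light as labelled and by -0.13 with exchanged arrays.

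Among 7 measured users of the cofactor and their helpers (Tph1, Tph2, Agmo, Nos1, Nos2, Nos3 and Dnajc12), 1 was called, and with exchanged arrays only. This was Agmo, the alkylglycerol monooxygenase, which was lower in KO light than in KO dark by 0.33 (limma adjusted p = 0.0129). Agmo levels were low in every array, at 4.54 to 5.21, and no background value was used. Of the 7 measured genes of amine handling (Maoa, Maob, Dbh, Pnmt, Slc18a1, Slc6a2 and Slc6a4), Maoa, which breaks dopamine down, was higher in KO light than in KO dark by 0.30 with exchanged arrays (limma adjusted p = 0.0197). The median difference of this list in KO light against WT light was -0.08 as labelled and -0.04 with exchanged arrays. Of 8 genes of other dopamine receptors and of the signal behind them, Adcy1, an adenylyl cyclase, was higher in KO light than in KO dark by 0.44 and than in WT light by 0.32 with exchanged arrays (limma adjusted p = 0.00147 and 0.0153). Adcy1 read 10.69, 10.34 and 10.19 in KO light, so that the array labelled KO light 3 was the lowest of them, and 10.65 in the array labelled WT dark 4.

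Transcription factors that act on Th or on dopamine neurons made up the last list, of 14 genes. Nr4a1, Egr1 and Fos, which neurons switch on with activity, were lowest in WT dark, the group in which Th was lowest. Nr4a1 read 9.45, 8.93 and 8.77 in KO dark, 8.06, 8.17 and 8.13 in WT dark, 10.31, 10.18 and 8.45 in KO light and 8.72, 8.93 and 9.22 in WT light. Egr1 read 8.67, 8.49 and 8.83 in KO dark, 7.19, 7.23 and 6.96 in WT dark, 9.56, 8.36 and 7.80 in KO light and 7.83, 8.17 and 8.52 in WT light. For both genes, and for Fos, KO dark lay above WT dark without overlap, by 0.93 for Nr4a1, 1.54 for Egr1 and 0.79 for Fos. In that comparison 16.7% of all genes did not overlap. Of the 14 factors 11 had the higher mean in KO dark, where 10293 of all 19937 genes had. The median difference of the list was 0.07, and Fosl1, Epas1 and En2 had the lower mean. Nr4a2, which encodes the Nurr1 receptor that dopamine neurons of the midbrain require, was named after its values were seen. It read 8.78, 8.73 and 8.79 in KO dark, against 8.52, 8.53 and 8.53 in WT dark, a difference of 0.24 (SE 0.05), and 8.60, 8.52 and 8.68 in KO light, against 8.47, 8.40 and 8.54 in WT light. The mean of Nr4a2 was lowest in WT light, not in WT dark.

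After light none of these factors was called as labelled. With exchanged arrays 8.23% of all genes were called between KO light and WT light and 13.3% between KO light and KO dark. The share was 4.41% between WT light and WT dark. With exchanged arrays Nr4a1 was higher in KO light than in WT light by 1.27 (limma adjusted p = 0.000294), Junb by 0.97 (limma adjusted p = 0.00125), Egr1 by 1.01 with overlap (limma adjusted p = 0.027) and Fos by 0.85 (limma adjusted p = 0.00746), where Th differed by 0.12 and was not called. Between KO light and KO dark, Nr4a1, Fos, Fosl1 and Junb were called higher with exchanged arrays, by 1.18, 0.95, 0.85 and 1.14, and Epas1, the hypoxia factor HIF-2α, was lower by 0.31 (limma adjusted p = 0.00375). Th differed by -0.04 in that comparison. Between WT light and WT dark, Nr4a1, Egr1 and Fos were called higher in the fit with exchanged arrays, by 0.84, 1.04 and 0.89, and Th stood higher there by 0.32. The factors of dopamine neuron development on the list (Pitx3, Lmx1b, En1, En2 and Foxa2) were not called in any comparison.

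**Figure D4:**
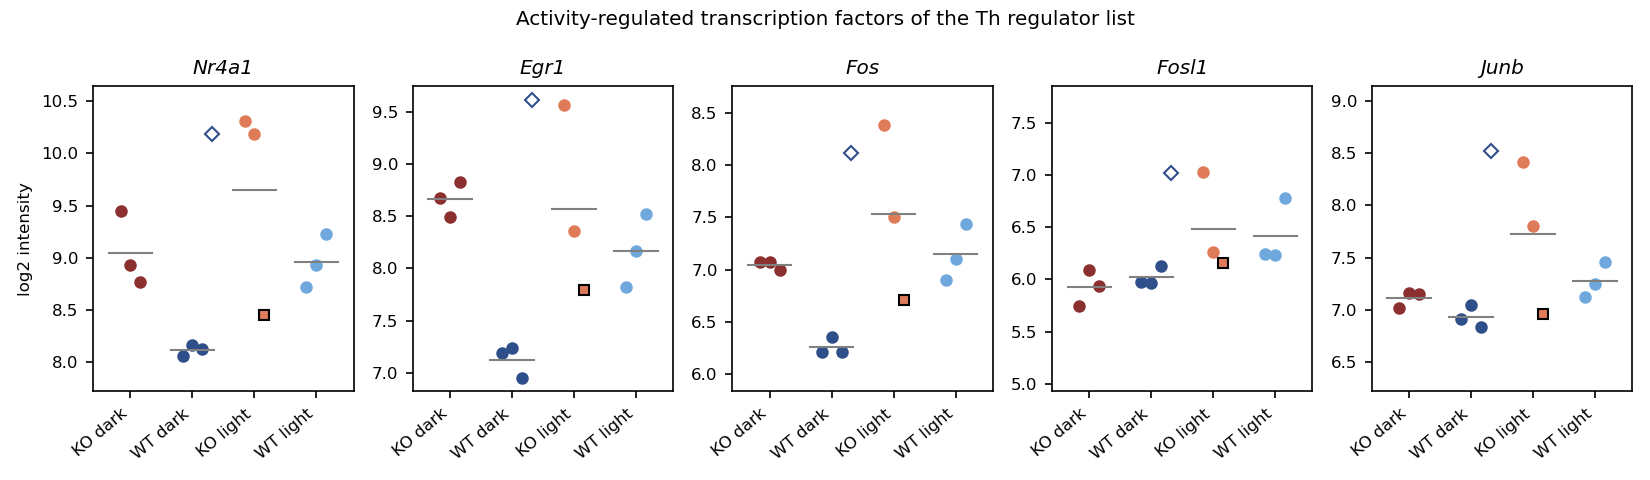
Log2 intensity of Nr4a1, Egr1, Fos, Fosl1 and Junb in each array of KO dark, WT dark, KO light and WT light, with symbols as in the plot of the 10 genes by array. Nr4a1, Egr1 and Fos are lowest in WT dark, and the array labelled KO light 3 is the lowest of the KO light group for all 5 genes.

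By position, Pts and Drd2 both lie on chromosome 9 with 5 measured genes between them, and Qdpr lies on chromosome 5 with 11 measured genes between it and Ppargc1a. Th and Drd4 lie on chromosome 7. The genes next to Pts differed in size and sign, and the part of position in the Pts values was not tested. On its Drd2 side, Ankk1, Ttc12, Ncam1, Gm11149 and Plet1 differed by -0.04, -0.06, -0.05, -0.11 and 0.22 between KO dark and WT dark. On its other side, Bco2, Il18, Tex12, Sdhd and Timm8b differed by 0.09, 1.31, 0.00, -0.46 and 0.03.

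Of these, Il18, a cytokine, and Sdhd, a subunit of succinate dehydrogenase, moved most, in opposite directions. Sdhd was lower in light too, by 0.38 as labelled (limma adjusted p = 0.0677) and by 0.42 with exchanged arrays (limma adjusted p = 0.00164). The 10 measured neighbours of Th differed by -0.11 to 0.17 in the dark and those of Qdpr by -0.08 to 0.12.

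**Figure D5:**
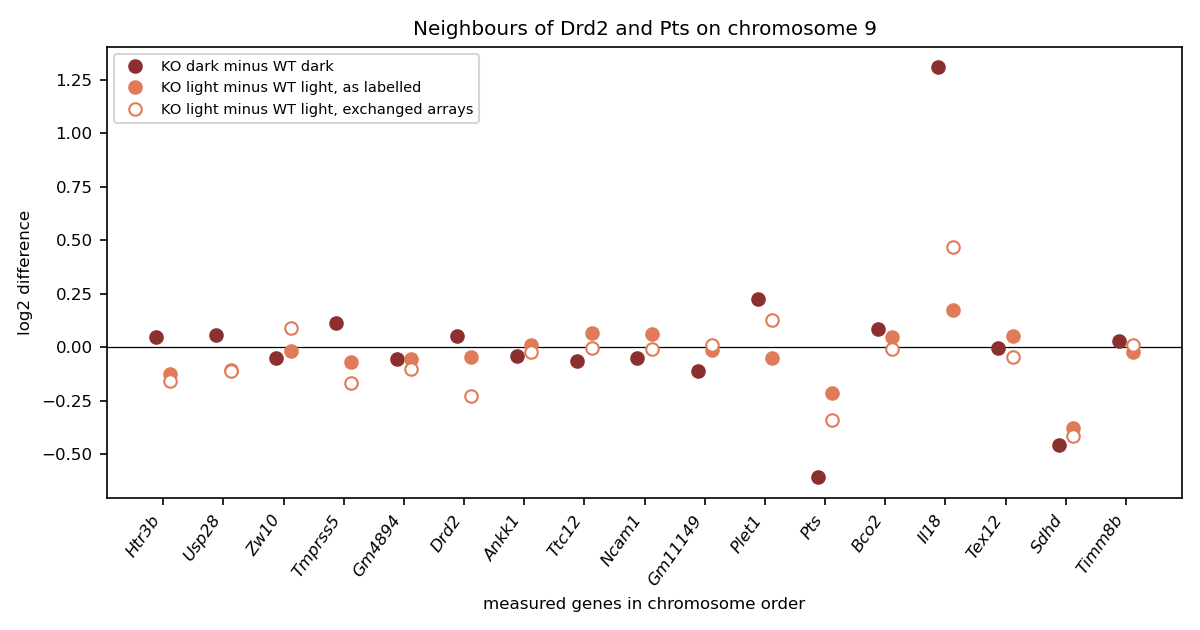
Log2 differences of the measured genes around Drd2 and Pts in chromosome order, for KO dark minus WT dark and for KO light minus WT light as labelled and with exchanged arrays. Il18 (1.31), Pts (-0.61) and Sdhd (-0.46) stand out in the dark among neighbours near 0.

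Over the 12 arrays, the levels most like those of Th were those of Pdp1, Prkcsh, Dapk1, Csnk1e and Fut8, with Pearson's r of 0.95, 0.92, 0.92, 0.90 and 0.90. With exchanged arrays r was 0.94, 0.73, 0.93, 0.82 and 0.90. Pdp1, a phosphatase that activates pyruvate dehydrogenase, averaged 10.24 in KO dark and 10.02 in WT dark. The levels most like those of Pts were those of Sdha, Nupl2, Hsd17b7, Slc25a5 and Rnmt, with r of 0.93, 0.93, 0.93, 0.92 and 0.92 as labelled. Sdha encodes a further subunit of succinate dehydrogenase and Slc25a5 a carrier of ADP and ATP in mitochondria. Sdha averaged 10.82 in KO dark and 11.02 in WT dark, and Hsd17b7, an enzyme of cholesterol synthesis, averaged 7.62 in KO dark and 8.38 in WT dark. Th and Pts themselves were related with r = -0.80, a sign favoured in advance by the choice of Th as high and Pts as low in KO dark. These correlations describe 12 arrays in 4 groups and carry no test, since the arrays of a group share its mean and the genes were picked from all 19937.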

How the data were processed

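RNA of mouse retina was measured on 13 Affymetrix Mouse Gene 1.0 ST arrays. The deposited intensities are linear, 1 per probe set, and stood at a common level in all arrays as deposited. The methods name Partek and Bioconductor. Versions, summarization, normalization and genome build: not given in the sources used here. Array medians lay between 141.1 and 145.65. Intensities were taken to log2, and probe sets with exactly 1 symbol (21640 of 34760) were averaged per gene, which gave 19937 genes. Of these probe sets 21553 had a gene ID in RefSeq GRCm38.p6, the source of the promoters and the gene order.

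Group means and their differences were estimated over 12 arrays in limma 3.58.1 (R 4.3.3), with 4 groups in 1 fit and 8 residual degrees of freedom. Benjamini-Hochberg adjustment ran over all genes. The array labelled WT dark 4 was left out, since the study describes 3 arrays per group. The fit was tested on simulated data. For arrays the number per group limits the precision, and no background value was used. An exact permutation test of 3 against 3 arrays cannot go below p = 0.1. After light the mice recovered overnight in darkness, and no source used here gives the time point of the arrays. The methods name male mice and the labels both sexes, so that WT dark mixes sexes in the fit of all 13 arrays. Xist, which is expressed in females, averaged 11.97 in KO dark and 11.89 in WT dark, against 5.15 in KO light and 4.94 in WT light. Uty, a Y chromosome gene, averaged 4.20 and 4.29 in these dark groups, against 9.22 and 9.45 in these light groups. Both genes matched the labelled sexes of the groups compared.

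The members and the lists were chosen with earlier results of these data known. Named are the 10 members, each listed gene that was called, otherwise up to 2 genes of a list with the largest difference in KO light against WT light, the 5 genes most like Th and Pts, and the 5 measured neighbours on either side of Pts, Drd2, Th and Qdpr. The alternatives were exchanged arrays, all 13 arrays, each array left out in turn, only the groups compared, the replicate number as a block, unmoderated variances (the ANOVA that the methods name), quantile normalization, log2 of the value plus 16, only genes above the median level, and single probe sets.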

Additional observations from a re-analysis of the deposited data

Results flagged for a closer look

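In the 4 arrays labelled WT dark, Drd4 had a lowest value of 11.05, in the array labelled WT dark 4. Its gap to the next array was 0.932 of the range of the 4 arrays and passed the 95% critical value of Dixon's test, which chance passes in about 1 of 20 groups. The light response of Th in KO minus that in WT was -0.41 as labelled (-0.36 with exchanged arrays). It was flagged since each KO light array lay below the mean of KO dark and each WT light array above the mean of WT dark. The nearest KO light array, replicate 2, read 7.522 against a KO dark mean of 7.525. The difference in response was not tested, because the dark arrays chose the gene, and that choice favours its sign.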

How the results depend on the processing

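The count of called genes among the members moved under 3 alternatives. With exchanged arrays it was 2 in KO light against WT light and 1 in KO light against KO dark, beside 0 as labelled. Leaving out each array in turn gave 0 to 1 in KO light against KO dark, the 1 being Drd2 without KO light replicate 3. Without that array 1981 of the 19937 genes were called in this comparison. With only the groups of the comparison the count of members was 1 in WT light against WT dark (Drd4). There 680 of the 19937 genes were called, beside 86 as labelled. In all other alternatives the counts of members stayed at 0. Over all genes, 35 were called between KO light and WT light as labelled, 0 with only the groups compared, 1 without WT light replicate 1, 1045 without KO light replicate 3 and 1640 with exchanged arrays. The adjusted p of limma ranged over the alternatives between 0.00011 and 0.592 for Drd2 in KO light against KO dark, 0.0202 and 0.996 for Drd2 in KO light against WT light, 0.0155 and 0.658 for Pts there, and 0.00987 and 0.357 for Drd4 in WT light against WT dark.

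With all 13 arrays the Th difference was 0.37 between KO dark and WT dark, 0.21 between WT light and WT dark and -0.30 for the interaction. As labelled no tested difference was called, and 34 values under the alternatives had the other sign. With exchanged arrays KO light minus WT light became -0.026 for Slc6a3, 0.11 for Slc18a2, 0.0066 for Gch1 and 0.030 for Spr, and the interaction became 0.019 for Slc18a2 and 0.094 for Spr (0.010 with all 13 arrays). With quantile normalization KO light minus KO dark became 0.022 for Ddc. Leaving out each array in turn, KO light minus WT light ranged over -0.029 to 0.041 for Slc6a3, -0.13 to 0.054 for Slc18a2, -0.14 to 0.040 for Spr, -0.034 to 0.029 for Qdpr and -0.19 to 0.050 for Drd2. KO light minus KO dark ranged over -0.089 to 0.073 for Ddc, -0.055 to 0.13 for Slc18a2, -0.021 to 0.063 for Gch1 and -0.054 to 0.0094 for Qdpr. WT light minus WT dark ranged over -0.0087 to 0.045 for Ddc, and the interaction over -0.0996 to 0.062 for Ddc and -0.075 to 0.103 for Spr. The replicate number as a block called 0 members in each comparison, and 11, 11, 17 and 13 genes overall for KO light against WT light, KO light against KO dark, WT light against WT dark and KO dark against WT dark, beside 35, 20, 86 and 15. The deviations of same-numbered arrays from their group means were related with r between -0.19 and 0.22 over 18 pairs. Differently numbered arrays were not compared, so these r do not decide whether the numbers pair the mice. Keeping only genes above the median level left 4 members (Spr, Qdpr, Drd2 and Drd4).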
